A study of Bos taurus with 21 samples.

Results

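Of 3 enzymes of lipid synthesis chosen by identifier, the 2 measured ones are described here, out of 22984 genes in the count tables of bovine (Bos taurus) hypothalamus. They are FASN (fatty acid synthase, ENSBTAG00000015980) and DGAT1 (diacylglycerol O-acyltransferase 1, ENSBTAG00000026356). The third, SCD (stearoyl-CoA desaturase, ENSBTAG00000045728), was not analysed here, because its identifier is absent from the count tables. Heifers in the control group were fed 1.2 Mn, the labels' unit of feeding level, and ovulated. Heifers on the restricted diet received 0.4 Mn and fell into a Restricted Anovulatory group (RA), in which ovulation did not occur, and a Restricted Ovulatory group (RO), in which it did. All 3 groups are hypothalamic tissue taken after 18 days of differential feeding, with 7 polyA-selected, single-read libraries each. RA and RO were thus divided by their response and not by a treatment. The labels number the replicates but do not say that each library is a separate animal, so the p-values below measure the spread between these libraries, part of which may be technical.

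FASN builds the saturated fatty acid palmitate from acetyl-CoA and malonyl-CoA with NADPH as the reductant. SCD places the first double bond in saturated acyl chains, and DGAT1, a membrane enzyme of the endoplasmic reticulum, joins diacylglycerol to a fatty acyl-CoA in the last step of triglyceride synthesis. In liver and adipose tissue fatty acid synthesis is known to fall with fasting, through insulin and the sterol regulatory element-binding proteins. In brain FASN also supplies lipids for membranes and myelin, and in rodents the pool of malonyl-CoA in the hypothalamus takes part in the control of feeding. DGAT1 is best known in cattle for its role in milk fat.

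Between 3379050 and 4476586 reads were counted per library. Control replicate 5 stood apart, with a mean correlation of 0.927 with the other controls, where the other 20 libraries had means of 0.956 to 0.973 with their own groups. A date-like part of the deposited file names takes 4 values, called runs A to D. In run A there was 1 library from every group. RO made up 6 of the 7 libraries of run B, beside 1 control, and run C had 5 controls with 2 RA libraries. The 4 libraries of run D were all RA. RA and RO therefore shared only run A. The labelled tissue was not checked against marker genes, because the identifiers could not be matched to gene names.

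FASN differed by less than the spread between libraries in every comparison. Its level is given in CPM, the read count scaled to a common library size with TMM factors (edgeR's trimmed mean of M-values). In controls the lowest, median and highest libraries measured 527.7, 624.6 and 685.6 CPM. In RA these values were 465.6, 591.3 and 658.2 CPM, and in RO they were 480.9, 635.3 and 772.6 CPM. The 3 groups overlapped over most of their range. The lowest library of all was RA replicate 4 and the highest was RO replicate 7. The counts behind these values ran from 1742 to 3058 reads per library.

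Averaged over its 7 libraries, each group had a FASN level of 610.0 ± 56.3 CPM (control), 575.0 ± 68.3 CPM (RA) or 634.2 ± 98.0 CPM (RO), with the SD. The order was RO, control, RA, and neither neighbour in that order differed beyond its spread. Between RA and RO the log2 fold change was -0.14 (SE 0.093, 95% interval -0.33 to 0.051, edgeR quasi-likelihood adjusted p = 0.387). Between RA and control it was -0.085 (SE 0.093, interval -0.28 to 0.11, edgeR adjusted p = 0.717). Between RO and control it was 0.056 (SE 0.093, interval -0.14 to 0.25, edgeR adjusted p = 0.910). Single libraries moved these small values by over 1.5 times. Between RA and RO the log2 fold change of FASN ran from -0.20 without RO replicate 4 (unadjusted p = 0.0303, edgeR adjusted p = 0.151) to -0.085 without RO replicate 7. Between RA and control it ran from -0.12 without RA replicate 7 to -0.044 without RA replicate 4, and between RO and control from 0.0021 without RO replicate 7 to 0.11 without RO replicate 4. Over all settings, tools and left-out libraries the adjusted p of FASN was at least 0.151, 0.533 and 0.719 in these comparisons. Of the 7 RA libraries, 5 lay below the RO median and 5 below the control median. In tissue of mixed cell types, fewer cells that express a gene and less RNA per cell cannot be told apart.

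**Figure D1:**
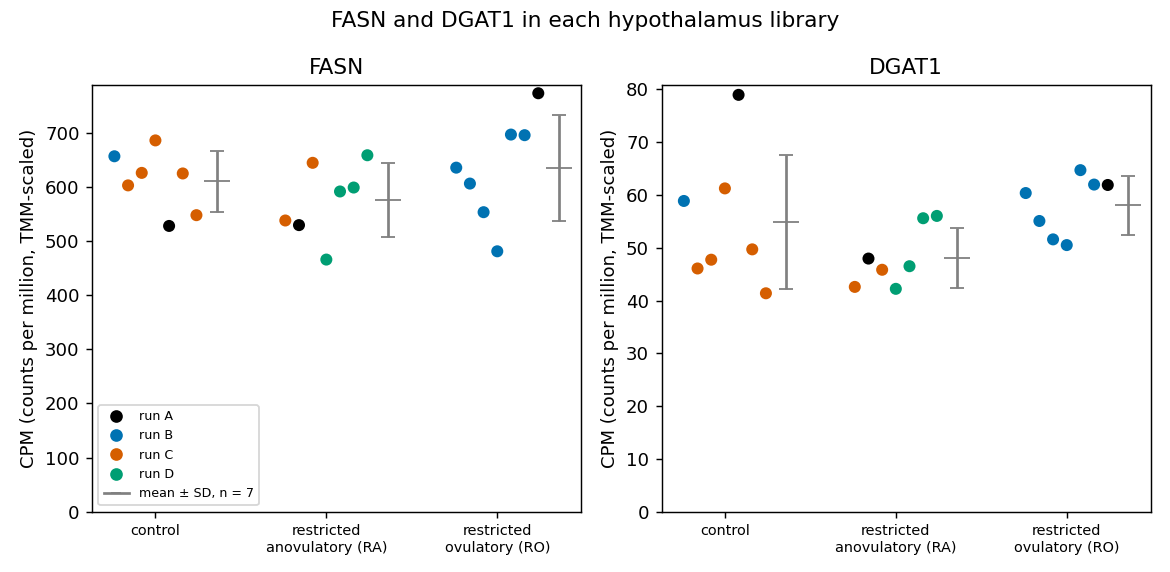
CPM of FASN (left) and DGAT1 (right) in each of the 21 libraries (y axes, starting at 0), by group (x axis), with points coloured by run and the mean ± SD of 7 libraries in grey. FASN ran from 465.6 to 772.6 CPM with the groups overlapping; DGAT1 in RA lay below the RO median in 7 of 7 libraries, and control replicate 5 was the highest of all at 79.0 CPM.

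Without run in the fit, DGAT1 showed the larger of the differences between the restricted groups, lower in RA than in RO. It did not pass the test after adjustment. The log2 fold changes were -0.26 for FASN and -0.20 for DGAT1 when run was a covariate. In RA the lowest, median and highest libraries measured 42.2, 46.5 and 56.0 CPM. The same values were 50.5, 60.4 and 64.7 CPM for RO and 41.4, 49.7 and 79.0 CPM for control. All 7 RA libraries were below the RO median and 5 of 7 were below the lowest RO library. RA replicates 6 and 7, at 55.6 and 56.0 CPM, fell inside the RO range, so the groups overlapped. RA and RO did not overlap at all for 0.662% of the tested genes. Each value rests on 156 to 308 reads.

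DGAT1 averaged 48.1 ± 5.65 CPM over the 7 RA libraries, 58.0 ± 5.59 CPM over the 7 of RO and 54.9 ± 12.7 CPM over the 7 controls (SD). The log2 fold change of RA against RO was -0.27 (SE 0.12, 95% interval -0.51 to -0.027), a fitted level 17.0% below that of RO or 0.830-fold. Its unadjusted p was 0.0312 and its edgeR adjusted p was 0.197. In the same comparison 20.7% of the 13435 tested genes had an unadjusted p under 0.05. A low unadjusted p for 1 of the 2 enzymes is therefore no result about them. With run as a covariate 291 of the 13435 genes had one. In that fit DGAT1 was at a log2 fold change of -0.20 with a larger SE of 0.19, and its unadjusted edgeR p was 0.288. With DESeq2 the adjusted p of DGAT1 was 0.171. With limma-voom, run throughout with quality weights for the libraries, it was 0.131.

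Against controls, DGAT1 was at a log2 fold change of -0.19 in RA (SE 0.12, interval -0.43 to 0.054, edgeR adjusted p = 0.559) and 0.081 in RO (SE 0.12, interval -0.16 to 0.32, edgeR adjusted p = 0.895). The order of the means was RO, control, RA, as for FASN, and neither neighbour differed beyond its spread. The control mean leans on replicate 5. Without that library the controls averaged 50.8 ± 7.69 CPM (SD, n = 6). The log2 fold changes then became -0.076 for RA (edgeR adjusted p = 0.799) and 0.19 for RO (edgeR adjusted p = 0.973). The value for RO was lowest, at 0.024, without control replicate 7, and fell to 0.043 without control replicate 2 and 0.046 without RO replicate 5. Control replicate 5 is in neither restricted group, so it enters the difference between RA and RO only through filter, scaling and shared spread. Without that library the difference was -0.26 (SE 0.095, edgeR adjusted p = 0.116). Over all settings and left-out libraries the adjusted p of DGAT1 ran from 0.116 to 0.99995 between RA and RO, from 0.314 to 0.912 between RA and control and from 0.822 to 0.9998 between RO and control. All 7 RO libraries were above the control median, and none was above the highest control.

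The diet as a whole was compared by setting the mean of both restricted groups against control. FASN averaged 604.6 ± 86.8 CPM over the 14 restricted libraries, against 610.0 ± 56.3 in the 7 controls. Its log2 fold change was -0.014 (SE 0.080), with a 95% interval from 0.882-fold to 1.11-fold and an edgeR adjusted p of 0.9998. DGAT1 averaged 53.1 ± 7.46 CPM against 54.9 ± 12.7. Its log2 fold change was -0.054 (SE 0.10), with an interval from 0.834-fold to 1.11-fold and an edgeR adjusted p of 0.993. The sign of both values turned when single libraries were left out. For FASN they ranged from -0.047 without control replicate 5 to 0.016 without control replicate 4, and for DGAT1 from -0.11 without control replicate 7 to 0.056 without control replicate 5. All 4 comparisons draw on the same 21 libraries, and those against control share the controls.

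Neither enzyme passed an adjusted p of 0.05 in any of the 4 comparisons with edgeR, DESeq2 or limma-voom. At an unadjusted 0.05 the only one of the 8 differences below the threshold was DGAT1 in RA against RO, with each of the 3 tools. The background was 0 of 13435 genes (0%) called by edgeR in each comparison at the adjusted threshold. At an unadjusted 0.05 edgeR had 2783 genes (20.7%) between RA and RO. Against control it had 1244 (9.26%) for RA, 864 (6.43%) for RO and 639 (4.76%) for both restricted groups. With run as a covariate edgeR had 291 genes between RA and RO. Against control it then had 769 for RA, 469 for RO and 920 for both restricted groups. DESeq2 called 472 genes for RA against RO, DGAT1 and FASN not among them, and 0 in the other comparisons. Limma-voom called 0 in all 4.

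The replicates limited how large a difference could have gone unseen. For both enzymes in all 4 comparisons, 8 of 8 differences, the 95% interval lay within 1.5-fold in either direction. Between RA and RO this held for 69.7% of all tested genes. Against control it held for 75.0% (RA), 76.4% (RO) and 83.8% (both restricted groups). With run as a covariate 6 of the 8 intervals still lay within 1.5-fold. Those of FASN and DGAT1 between RA and RO did not. They reached down to log2 fold changes of -0.62 for FASN (0.649-fold) and -0.59 for DGAT1. In a fit to only the runs that hold both sides, 5 of 6 intervals lay within 1.5-fold. There DGAT1 in RA against control reached down to 0.640-fold.

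**Figure D2:**
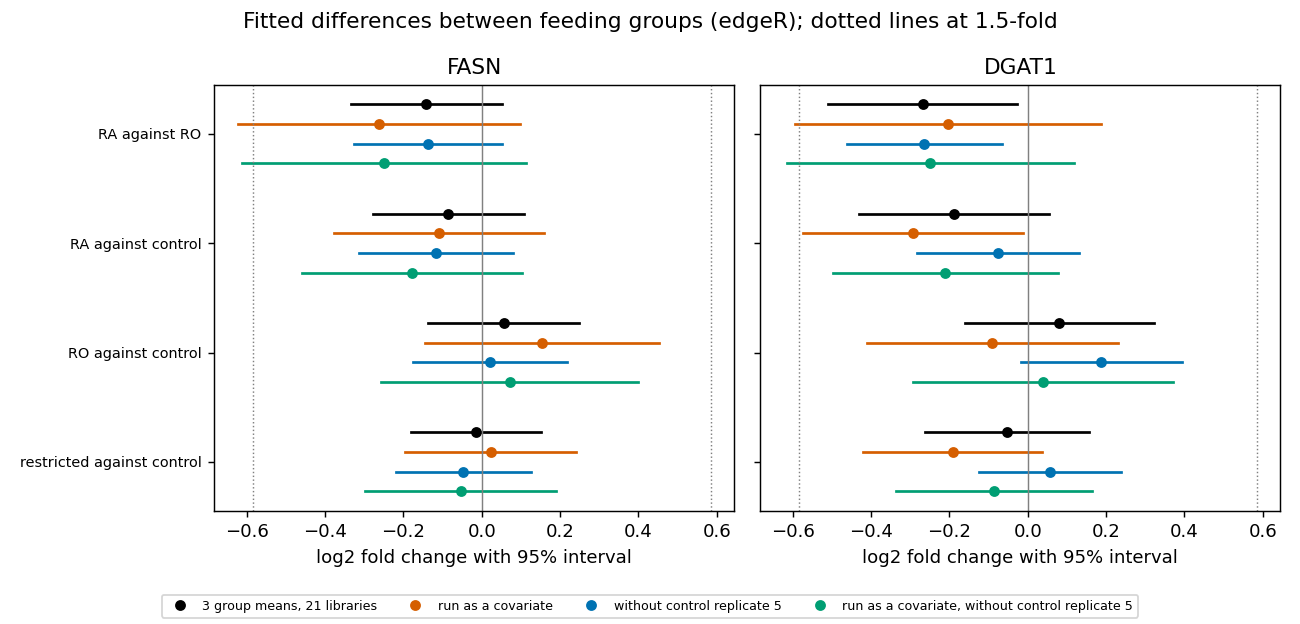
Log2 fold changes (points) with 95% intervals (lines) of FASN (left) and DGAT1 (right) in the 4 comparisons (rows), from edgeR's fit of 3 group means, with run as a covariate, without control replicate 5, and with both changes together. The intervals of the first fit lie between the dotted lines at 1.5-fold; those with run as a covariate are wider, and DGAT1 in RO against control changes sign between fits.

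Values within runs were set beside the pooled ones. In run A, FASN measured 529.2 CPM in the RA library, 527.7 in the control and 772.6 in the RO library. In run C the 2 RA libraries had 537.7 and 644.2 CPM of FASN, inside the 547.6 to 685.6 of the 5 controls at the upper value and below it at the lower. In run B the single control had 656.3 CPM, inside the 480.9 to 696.3 of the 6 RO libraries. Libraries of different groups that shared run B thus overlapped, and in run A FASN stood out in the RO library. When run entered the fit as a covariate, FASN in RA lay at a log2 fold change of -0.26 from RO (edgeR adjusted p = 0.99995). Against control it was -0.11 for RA, 0.15 for RO and 0.023 for both restricted groups (edgeR adjusted p = 0.859, 0.9998 and 0.976). In that fit without control replicate 5 these values were -0.18, 0.071 and -0.053 (edgeR adjusted p = 0.912, 0.9998 and 0.99997).

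For DGAT1, run A gave 48.0 CPM in the RA library, 61.9 in the RO library and 79.0 in control replicate 5. In run C the RA libraries measured 42.6 and 45.8 CPM, and the controls 41.4 to 61.3. In run B the control measured 58.9 CPM and the RO libraries 50.5 to 64.7. The control in run B was therefore within the RO range, and the RA libraries in run C were within the control range. With run in the fit, DGAT1 in RA lay at a log2 fold change of -0.20 from RO (edgeR adjusted p = 0.99995) and of -0.29 from control (edgeR adjusted p = 0.777, unadjusted 0.0409). For RO against control the sign turned to -0.090 (edgeR adjusted p = 0.9998). Restricted against control gave -0.19 with run as a covariate (edgeR adjusted p = 0.748). That fit contains control replicate 5. Without it the value was -0.21 for RA against control (unadjusted p = 0.140, edgeR adjusted p = 0.912), 0.038 for RO (edgeR adjusted p = 0.9998) and -0.086 for both restricted groups (edgeR adjusted p = 0.99997).

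Run D held no other group, so RA enters the fits with run only through its 3 libraries from runs A and C. Within RA, the 4 libraries of run D differed from those 3 by a log2 fold change of 0.040 for FASN (SE 0.12, edgeR adjusted p = 0.950) and 0.16 for DGAT1 (SE 0.13, edgeR adjusted p = 0.780), where edgeR called 0 of 13380 genes (0%) and 7.70% had an unadjusted p under 0.05. RA and RO shared only run A, with 1 library each. Among the libraries of runs B and D, the difference of RA and RO and that between the runs cannot be told apart. The fit with run separates them only through run A and through the controls of runs B and C.

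The spread of FASN between libraries was far above its counting error. Its coefficient of variation within groups was 9.24% (control), 11.9% (RA) and 15.5% (RO), where counting alone gives about 2.1%. The biological coefficient of variation fitted by edgeR was 12.4%, close to the 12.2% of the trend for genes of its abundance. DGAT1 varied by 23.2% in controls, 11.7% in RA and 9.63% in RO, with a counting error of 6.97%, 7.27% and 6.75%. Without replicate 5 the controls varied by 15.1%. Its fitted biological coefficient of variation was 14.5%, below the trend of 16.8%. Across all 21 libraries the highest value was 1.66 times the lowest for FASN and 1.91 times for DGAT1.

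The levels of FASN and DGAT1 were correlated over the libraries, and the size of Pearson's r turned on a few of them. Over 21 libraries their log2 CPM correlated with Pearson r = 0.46 (two-sided permutation p = 0.0346) and Spearman rho = 0.55 (permutation p = 0.00978). This was the 1 pair of enzymes that could be set against each other, and the points share each library's depth and scaling. Without the 2 farthest from the FASN median, RA replicate 4 and RO replicate 7, r was 0.32 (permutation p = 0.178) and rho 0.44 (permutation p = 0.0591). Leaving out single libraries moved r from 0.38 without RA replicate 4 (permutation p = 0.101) to 0.73 without control replicate 5 (permutation p = 0.00021). The permutation p of r was at least 0.05 without any 1 of 7 libraries: control replicates 4 and 7, RA replicates 1 and 4, and RO replicates 5, 6 and 7. The permutation p of rho stayed under 0.05 without each of the 21 libraries, at most 0.0291 without RA replicate 4 (rho = 0.49).

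Within groups the relation differed in size, and the difference was not tested. In RO it was r = 0.91 (rho 0.89, exact permutation p = 0.00258, 0.00774 after Benjamini-Hochberg adjustment over the 3 groups). In RA it was 0.66 (rho 0.64, exact permutation p = 0.111, adjusted 0.166), and among controls -0.071 (rho 0.21, exact permutation p = 0.878, adjusted 0.878). Each rests on 7 libraries, and how many other genes reach such an r with FASN within a group was not counted. With the 2 farthest from the group's FASN median left out, r was 0.97 in RO, 0.60 in RA and 0.96 among controls, over 5 libraries each. Among controls the libraries left out were replicates 5 and 7. As deviations from the group means r was 0.38 (permutation p = 0.0941) and rho 0.57 (permutation p = 0.00716). Without control replicate 5 that r was 0.75 and rho 0.80. That library was singled out after the data were seen and has the fewest FASN reads per DGAT1 read. A higher r without it thus follows from the choice and is a description. As deviations from the run means r was 0.56 (permutation p = 0.00842) and rho 0.65 (permutation p = 0.00192).

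**Figure D3:**
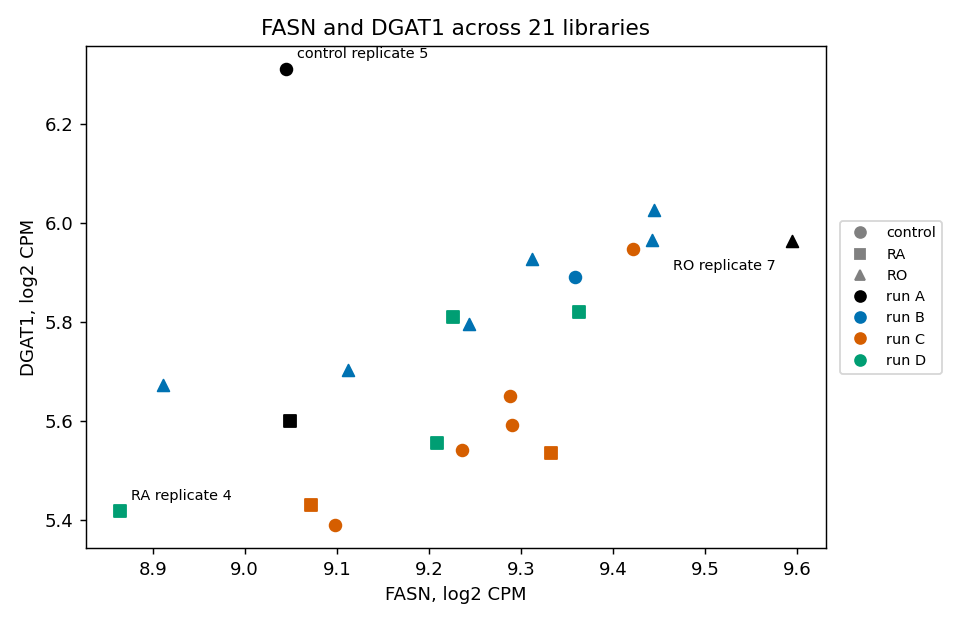
Log2 CPM of DGAT1 (y axis) against FASN (x axis) in the 21 libraries, with the symbol for the group and the colour for the run. Most libraries lie along a rising band that holds all 3 groups, with RA replicate 4 at its lower left and RO libraries along its length. On the DGAT1 axis 5 of 7 RA libraries lie below the lowest RO library. Control replicate 5 lies alone at the top left (r = 0.46 with it, 0.73 without it).

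A correlation of this size was common in these data. Of the other 13434 tested genes, 17.2% had a higher r with FASN than DGAT1 had, which put DGAT1 at place 2318. FASN was at place 2349 among the genes ordered by r with DGAT1. For 5% of genes r with FASN was above 0.67. Without control replicate 5, 95.04% of genes had a lower r with FASN than DGAT1 had. The enzymes were thus not each other's closest partner in these libraries.

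The gene whose log2 CPM was most like that of FASN over the 21 libraries was ENSBTAG00000017851, with r = 0.90 and rho = 0.88. Its group means were 60.5 ± 8.88 CPM (control), 59.3 ± 10.04 CPM (RA) and 63.4 ± 12.3 CPM (RO), the same order as FASN (SD over 7 libraries). For DGAT1 it was ENSBTAG00000013251, with r = 0.95 and rho = 0.94. That gene's means were 131.9 ± 19.0 CPM (control), 115.8 ± 8.65 CPM (RA) and 136.1 ± 9.44 CPM (RO). Its log2 fold change for RA against RO was -0.23 (SE 0.078, edgeR adjusted p = 0.122), beside -0.27 for DGAT1. Each was picked as the highest of 13434 correlations, so its r is a description. The likeness of its group means and fold changes to those of the enzyme largely follows from that choice. Without control replicate 5 the values were 0.89 and 0.93.

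**Figure D4:**
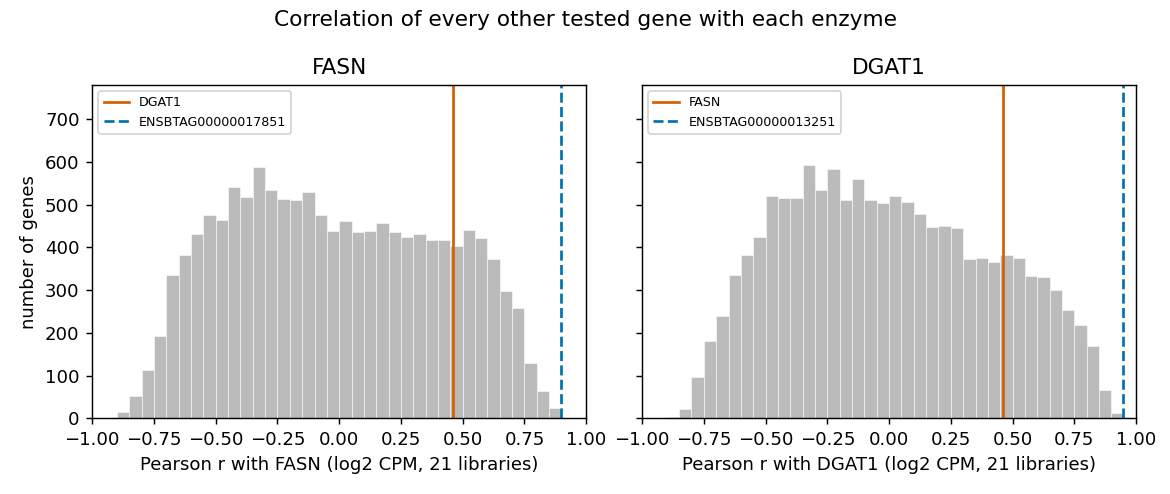
Number of genes (y axis) by their Pearson r (x axis, bins of 0.05) with FASN (left) and with DGAT1 (right) over 21 libraries; the solid line marks the other enzyme and the dashed line the gene most like it. The other enzyme, at 0.46, falls inside the broad distribution, and the likest genes, at 0.90 and 0.95, sit at its right edge.

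The number of FASN reads per DGAT1 read does not depend on the scaling of a library. Because it is not per transcript length, it is compared only between libraries. Its mean was 11.99 ± 1.20 for RA, 10.9 ± 0.886 for RO and 11.6 ± 2.33 for control (SD over 7 libraries). Control replicate 5 was at 6.68, below every other library, whose values ran from 9.52 to 14.1. The other 6 controls averaged 12.4 ± 0.969. The low ratio in that library combined the highest DGAT1 count of all, 308 reads, with 2058 reads of FASN.

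**Figure D5:**
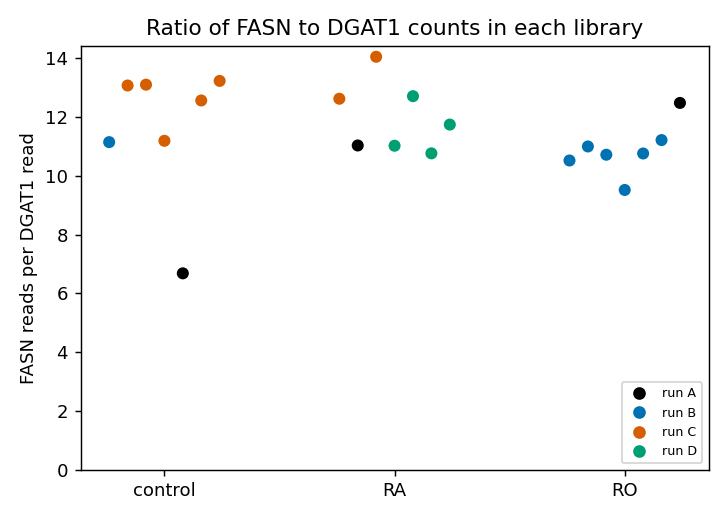
FASN reads per DGAT1 read (y axis, starting at 0) in each library by group (x axis), coloured by run. Control replicate 5, at 6.68, lies below the other 20 libraries, which sit between 9.52 and 14.1.

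In the RefSeq gene table of assembly ARS-UCD2.0, which is not known to be the build of the counts, HSF1, the gene of a heat shock transcription factor, overlaps DGAT1. A microRNA gene lies within the span of FASN. The strand setting of the counting is not given in the sources used here, so part of the DGAT1 count could include or have lost reads of the shared stretch, which was not tested.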

How the data were processed

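RNA was measured by polyA-selected, single-read sequencing in 21 hypothalamus libraries, grouped by their titles. The authors deposited raw read counts per gene, whole numbers without normalization, in 1 table per library. Per the submitters' processing notes CASAVA 1.4, Bowtie, SAMtools and HTSeq were used. Build, annotation release, strand setting and the handling of multiply mapped reads were not given in the sources used here. FASN and DGAT1 were named by the identifiers chosen for them. None of the other identifiers was matched to a symbol (0 of 22984), so lists of lipid pathway genes and cell type markers were not tested. No sequence was used here.

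Genes were kept by filterByExpr (minimum count 10, total 15), which left 13435 genes holding 99.8% of the counts. Both enzymes passed. After TMM scaling, a model of 3 group means over all 21 libraries was tested by the robust quasi-likelihood F-test of edgeR 4.0.16 (R 4.3.3), with Benjamini-Hochberg adjustment over all tested genes and a threshold of 0.05. Standard errors were derived from the fold change and its F statistic. Log2 CPM used a prior count of 2. Correlations used 100000 permutations, or all 5040 arrangements within a group. DESeq2 1.42.0 and limma-voom with quality weights (limma 3.58.1) were alternatives, with the further settings described in the closing part. The edgeR fits were tested on simulated data without differences between runs. Of 100 genes changed 1.5-fold, 58% were recovered between RA and RO. Against control it was 65% for RA, 63% for RO and 71% for both restricted groups. Between 3.80% and 6.90% of the genes called were unchanged ones. The rule for named genes took both enzymes and, for each, the gene with the highest r. The enzymes, lists and tests were chosen with earlier results of these data known. Control replicate 5 was singled out, and the within-group correlations were added, after the data were seen. No pair of the 210 pairs of libraries agreed within sampling noise (chi-square per degree of freedom at least 2.14, where sampling noise gives about 1).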

Additional observations from a re-analysis of the deposited data

Results flagged for a closer look

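Of 9 sets of 7 values (FASN, DGAT1 and their ratio in each group), 1 held a library set apart from the rest by Dixon's criterion at the 95% level, which chance meets in about 1 set in 20. Control replicate 5 had 6.68 FASN reads per DGAT1 read, against 11.1 to 13.2 in the other controls, and on the log2 scale of the ratio, on which the criterion was applied, its gap was 0.749 of the range where the limit is 0.568. Its DGAT1 level alone, 79.0 CPM against 41.4 to 61.3 in the other controls, was within that limit in log2 CPM.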

How the results depend on the processing

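The fold changes of FASN and DGAT1 for RA against RO and for RA against control kept their direction, with no adjusted p under 0.05, under every setting run: RLE and upper-quartile scaling, no filter, at least 5 CPM in 7 libraries, DESeq2, limma-voom, a fit to just the compared groups, run as a covariate (also without control replicate 5, added after the data were seen), the runs that hold both sides (RA against control only), the replicate block and leaving out each library. The sign turned for FASN in RO against control with limma-voom (-0.0081), and for DGAT1 with run as a covariate (-0.090) and in the runs holding both sides (-0.16). In restricted against control it turned for FASN with run as a covariate (0.023) and in the runs holding both sides (0.020), and for DGAT1 with limma-voom (0.018). Without single libraries these last values ranged from -0.047 to 0.016 for FASN and from -0.11 to 0.056 for DGAT1. The cause was not tested.

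Genes called in RA against RO numbered 472 with DESeq2, 1 with the 2 groups alone, 299 at an adjusted p of 0.1, and 0 to 399 without single libraries (RO replicate 4 left out 399, control replicate 7 left out 21, RA replicate 3 left out 17, RO replicate 7 left out 1). The correlation of the enzymes was 0.38 as deviations from group means, 0.32 without the 2 farthest libraries, 0.66 within RA, -0.071 within controls and 0.38 to 0.73 without single libraries. No pairing of samples by replicate number was seen (mean correlation of deviations -0.045 over 21 same-numbered pairs, 4 of them above 0.1). These values cannot show that the design had none. With the replicate block, 0 genes were called in each comparison, 3 of 21 libraries matched best with their own number, and the fold changes for RA against RO were -0.14 for FASN and -0.26 for DGAT1. The correlations with SCD and a fit to runs holding both RA and RO were not run. Counting error of about 7% per library limits DGAT1.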
